A study of Mus musculus with 13 samples.

Results

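The TNF superfamily comprises trimeric ligands, most of them anchored in the cell membrane, and the receptors that they cluster. In the deposited count table, 45 of 24421 gene symbols belong to it: 32 begin with Tnfsf or Tnfrsf, and 13 carry other names (Tnf, Lta, Ltb, Ltbr, Cd27, Cd40, Cd40lg, Cd70, Fas, Fasl, Ngfr, Eda2r and Edar). They were 18 ligand genes and 27 receptor genes, taken by name. RNA sequencing had been carried out on liver endothelial cells of wild-type mice that were germ-free (GF, without live microbes, 6 libraries) or conventionally raised with a normal microbiota (CONV-R, 7 libraries). The labels give no age, sex or isolation method and do not tie libraries to animals. The p-values therefore reflect only how these libraries vary, which may be technical. All animals were of wild-type genotype, and GF libraries are numbered 8 to 13 and CONV-R libraries 1 to 7, as in the labels.

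Receptors of the family fall into those with a cytoplasmic death domain, which can assemble caspase-8 or kinase complexes, those that recruit TRAF adaptors and feed the canonical and non-canonical NF-kB pathways, and decoys that bind ligand without signalling. In the liver, TNF made by Kupffer cells and other leukocytes acts on endothelium to raise adhesion molecules and chemokines, lymphotoxin and LIGHT signal through the lymphotoxin beta receptor, and FAS and TRAIL receptors mediate death signals. The comparison of GF with CONV-R cells shows how transcripts of this system differed in endothelial preparations without and with a microbiota.

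Of the 45 genes, 35 had enough counts to be tested and 10 did not. Tested genes higher in GF were Fas and Eda2r, both receptors. Tested genes lower in GF were the ligands Tnf, Tnfsf14 and Ltb and the receptors Ngfr, Tnfrsf13b and Tnfrsf13c (adjusted p under 0.05, from edgeR's quasi-likelihood fit across all genes). The other 27 passed in neither direction. The 8 called genes were 22.9% of the 35, next to 24.1% of all 13915 tested genes, so the family was called about as often as genes in general. The 2 higher genes were 5.71% of those tested, against a background of 11.4%, and the 6 lower genes were 17.1%, against 12.7%. The median log2 fold change was -0.21 over the tested family and -0.01 over all tested genes. For 6 of the 35 genes the GF and CONV-R libraries did not overlap, 2 with all GF libraries above and 4 with all below. Among all tested genes the groups did not overlap for 10.3%, with GF above for 5.94% and below for 4.32% of the tested genes. The calls over all genes split into 1593 higher and 1764 lower, which scaling by library totals turned into 971 higher and 2773 lower.

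Promoters are shown for the 6 called genes whose libraries did not overlap between the groups. Each is the 250 bases before the annotated start, from RefSeq on build GRCm38.p6, read 5′ to 3′ on the gene's strand. RefSeq starts differ somewhat from those of GENCODE used for the gene spans, and for Ltb and Eda2r the window reaches into the GENCODE gene. Capitals mark matches to an NF-kB type decamer (GGG, then 3 bases of any kind, then TTCC or TCCC, both strands) and to the TATA box letters TATAAA (gene strand only); the decamers can overlap each other.
Tnf (chr17:35202008-35202257, minus strand): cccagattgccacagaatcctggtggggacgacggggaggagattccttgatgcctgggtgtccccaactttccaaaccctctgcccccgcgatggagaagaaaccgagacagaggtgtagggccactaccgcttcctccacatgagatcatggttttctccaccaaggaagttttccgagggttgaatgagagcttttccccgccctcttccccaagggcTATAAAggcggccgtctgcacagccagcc
Tnfsf14 (chr17:57194182-57194431, minus strand): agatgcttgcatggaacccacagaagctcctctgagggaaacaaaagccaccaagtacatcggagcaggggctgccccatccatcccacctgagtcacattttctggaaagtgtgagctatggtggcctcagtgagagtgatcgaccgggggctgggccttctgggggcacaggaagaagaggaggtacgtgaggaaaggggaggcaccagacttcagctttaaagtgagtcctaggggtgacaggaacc
Ltb (chr17:35194257-35194506, plus strand): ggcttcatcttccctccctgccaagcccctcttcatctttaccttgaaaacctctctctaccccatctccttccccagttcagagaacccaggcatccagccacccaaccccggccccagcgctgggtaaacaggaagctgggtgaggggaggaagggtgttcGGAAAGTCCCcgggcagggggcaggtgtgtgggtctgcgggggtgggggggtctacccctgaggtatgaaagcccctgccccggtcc
Fas (chr19:34290409-34290658, plus strand): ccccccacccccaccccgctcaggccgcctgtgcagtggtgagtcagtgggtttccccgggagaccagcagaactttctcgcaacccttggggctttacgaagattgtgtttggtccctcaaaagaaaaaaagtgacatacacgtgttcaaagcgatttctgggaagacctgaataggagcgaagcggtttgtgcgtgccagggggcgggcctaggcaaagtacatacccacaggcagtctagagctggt
Eda2r (chrX:97377210-97377459, minus strand): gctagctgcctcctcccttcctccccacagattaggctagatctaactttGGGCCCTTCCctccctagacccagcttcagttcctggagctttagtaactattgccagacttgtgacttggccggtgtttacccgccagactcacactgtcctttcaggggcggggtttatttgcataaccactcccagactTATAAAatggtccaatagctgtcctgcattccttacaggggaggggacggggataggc
Tnfrsf13c (chr15:82224381-82224630, minus strand): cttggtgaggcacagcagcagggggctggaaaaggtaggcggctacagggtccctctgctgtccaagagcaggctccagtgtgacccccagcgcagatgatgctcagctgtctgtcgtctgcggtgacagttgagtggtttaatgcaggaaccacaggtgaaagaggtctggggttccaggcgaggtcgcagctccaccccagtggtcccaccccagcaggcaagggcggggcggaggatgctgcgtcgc
The decamer was present once in Ltb, on the opposite strand with its first base at position -87, and once in Eda2r, at position -200. TATAAA was present in Tnf at position -29 and in Eda2r at position -58, where -1 is the last base before the start. These letters were not in the windows of Tnfsf14, Fas and Tnfrsf13c, which says nothing of other stretches. Of 27025 promoters of this length, 8.67% held the decamer and 8.12% held TATAAA. Of the 35 family promoters in the RefSeq table, 6 held the decamer and 5 held TATAAA. A match is a string of letters and not a measured site.

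Library totals were 23407168 to 35478115 counts in GF and 7590320 to 32869515 in CONV-R. Levels are given as CPM, counts scaled to a common library size after TMM adjustment. Summed CPM of 8 endothelial markers (Pecam1, Cdh5, Kdr, Tek, Stab2, Lyve1, Clec4g and Oit3) ran from 21686 to 23880 in GF and from 11500 to 20587 in CONV-R, lowest in CONV-R 1, and 5 of the 8 rose in GF. All 8 were detected in every library, and markers of other cells were detected too. The 8 B and plasma cell markers summed to 21.2 to 38.0 CPM in GF and 54.7 to 1503 in CONV-R, where CONV-R 1 held the 1503 and the next library 74.8; 7 of the 8 fell. The 7 neutrophil and monocyte markers summed to 81.1 to 170 in GF and 188 to 2080 in CONV-R, highest in CONV-R 7 and 6, and all 7 fell. The 7 Kupffer cell markers summed to 1660 to 2618 in GF and 1631 to 5192 in CONV-R, with 0 of 7 past the threshold, and the 8 T and NK cell markers to 28.6 to 84.2 in GF and 28.6 to 207 in CONV-R, with 0 of 8. The 8 hepatocyte markers summed to 514 to 805 in GF and 940 to 5319 in CONV-R, and 7 fell. The 6 dendritic cell markers summed to 184 to 261 CPM in GF and 180 to 252 in CONV-R, and 3 fell. The 5 cholangiocyte markers summed to 41.4 to 76.1 CPM in GF and 8.17 to 53.8 in CONV-R, and 3 rose. The 6 stellate cell and fibroblast markers summed to 33.8 to 363 CPM in GF and 19.9 to 100.99 in CONV-R, and 2 were called higher. The 363 CPM was in GF 11 alone, and the other GF libraries had 33.8 to 62.8 CPM, within the CONV-R range. GF 11 held 154 CPM of Col1a1 and 146 CPM of Col1a2. For both genes every other GF library lay below the highest CONV-R library. No marker of these lists was at 0 in any library. Library names carry a code number that is 6 for all GF libraries, 10 for CONV-R 1 to 4 and 9 for CONV-R 5 to 7. What the number stands for is not stated, and it cannot be told apart from the group because GF and CONV-R share none. In bulk libraries, fewer cells of a type and less RNA per cell cannot be told apart.

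Tnf, the founding ligand and a main inflammatory cytokine of macrophages, was lower in GF. Its lowest, median and highest levels were 0.928, 1.49 and 1.84 CPM in GF libraries, against 3.37, 4.61 and 8.56 CPM in CONV-R libraries. Every GF library lay below every CONV-R library, and CONV-R 6 and 7 were the highest. The mean was 1.45 ± 0.31 CPM in GF (SD, n = 6) and 5.32 ± 1.85 CPM in CONV-R (SD, n = 7), a log2 fold change of -1.86 ± 0.24 (SE; edgeR adjusted p = 2.53e-04). Raw counts behind these levels were small, at 21 to 53 per GF library and 54 to 154 per CONV-R library. The neutrophil and monocyte marker sum was also highest in CONV-R 7 and 6. The next highest sum, 697 CPM, was in CONV-R 5, where Tnf was 3.37 CPM (54 counts), near the 3.82 CPM of CONV-R 4. Without CONV-R 6 and 7 the log2 fold change of Tnf was -1.59, and against CONV-R 2, 3 and 4 alone it was -1.64 (edgeR adjusted p = 3.31e-04). It was -1.65 against CONV-R 1 to 4 and -2.12 against CONV-R 5 to 7. Kupffer marker sums were 1660 to 2618 CPM in GF and 1631 to 2026 CPM in CONV-R 2, 3 and 4, whereas neutrophil and monocyte marker sums were 81.1 to 170 CPM in GF and higher, at 252 to 369 CPM, in those 3 libraries. The part of these cells in the level of Tnf was not tested.

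Tnfsf14 encodes LIGHT, a ligand of the lymphotoxin beta receptor and of HVEM that activated T cells and myeloid cells make. It had 0.891, 1.18 and 1.79 CPM (lowest, median, highest) in GF libraries, against 2.36, 3.87 and 9.80 CPM in CONV-R libraries. The groups did not overlap, and CONV-R 6, 7 and 1 stood above the other CONV-R libraries. The log2 fold change was -2.08 ± 0.38 (edgeR adjusted p = 0.00244). It was smaller, at -1.09 ± 0.21, against CONV-R 2, 3 and 4 alone (edgeR adjusted p = 0.00469), -1.52 against CONV-R 1 to 4 and -2.63 against CONV-R 5 to 7. The neutrophil and monocyte marker sums given for Tnf apply here too. Of the CONV-R sums, that of CONV-R 1 was the lowest, at 188 CPM. The T and NK cell marker sum of CONV-R 1 was the highest of all libraries, at 207 CPM, and its Kupffer cell marker sum was 4229 CPM. The part of these cells in the level of Tnfsf14 was not tested.

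Ltb, which encodes the membrane anchor of the lymphotoxin heterotrimer in lymphocytes, had 2.69, 3.24 and 3.85 CPM in GF libraries and 5.34, 6.06 and 95.1 CPM in CONV-R libraries (lowest, median, highest). CONV-R 1 alone held the 95.1 CPM, and the other CONV-R libraries reached 8.56 CPM, still above every GF library. The log2 fold change of -2.53 ± 0.75 (edgeR adjusted p = 0.0279) was -0.94 ± 0.15 without CONV-R 1 (edgeR adjusted p = 8.05e-04). The same library held the highest B and plasma cell marker sum. Against CONV-R 2, 3 and 4 alone Ltb stood at -0.74 ± 0.14 (edgeR adjusted p = 0.00380). Leaving out any 1 GF library ended the call of Ltb with all CONV-R libraries in the fit, with adjusted p up to 0.0591. The call was also lost without a filter on counts.

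**Figure D1:**
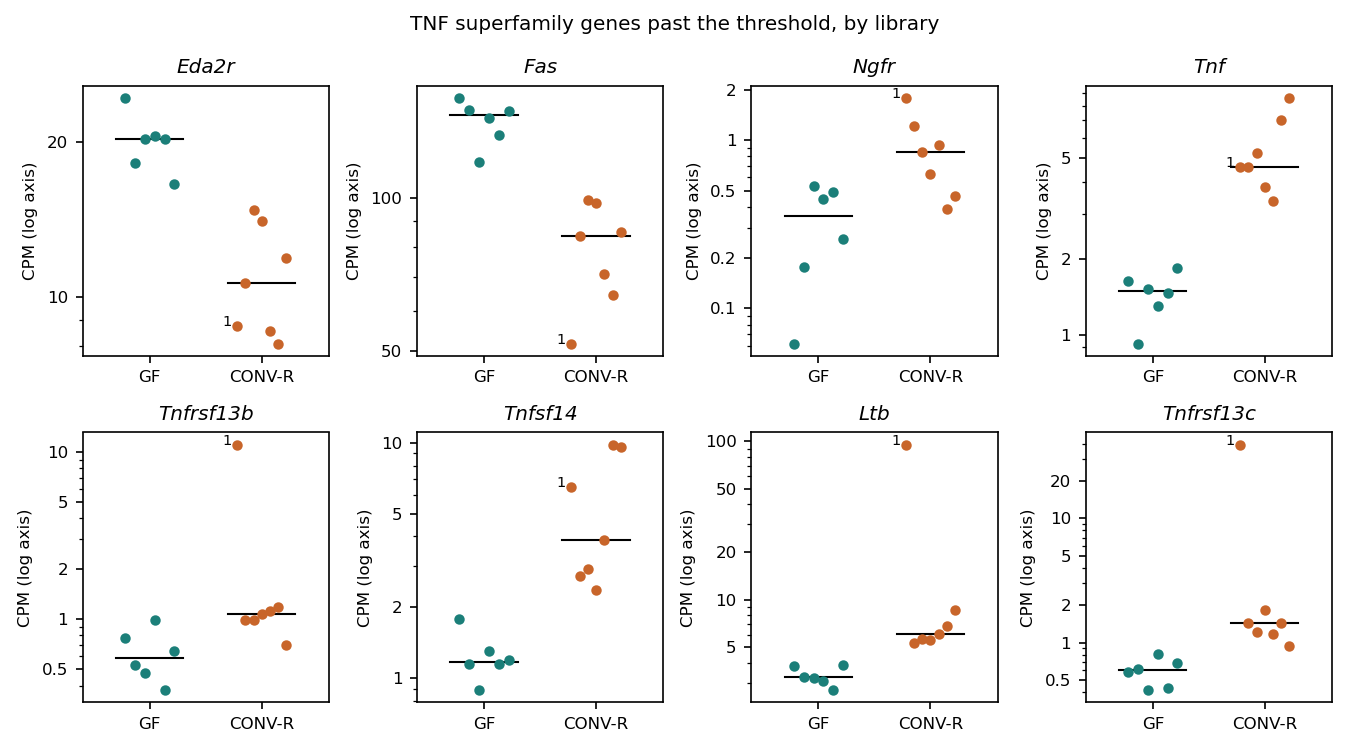
Level of each of the 8 called genes in every library, in CPM on a log axis, with GF libraries on the left and CONV-R libraries on the right of each panel. Points are libraries, horizontal lines are group medians and the digit 1 marks CONV-R 1. Fas and Eda2r lie higher in all GF libraries, Tnf and Tnfsf14 lower in all of them, and CONV-R 1 stands far above the rest for Ltb, Tnfrsf13c and Tnfrsf13b.

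None of the other 8 tested ligands passed. Tnfsf10, which encodes TRAIL and was the most abundant ligand per length, had 285, 307 and 341 CPM in GF libraries and 178, 278 and 358 CPM in CONV-R libraries (lowest, median, highest). These ranges overlapped, and the log2 fold change was 0.23 ± 0.15 (edgeR adjusted p = 0.283). Tnfsf12, the gene of TWEAK, ranged from 20.5 to 27.0 CPM in GF and from 13.8 to 25.4 in CONV-R. Tnfsf13, the gene of the B cell survival factor APRIL, ranged from 4.20 to 6.36 CPM in GF and from 4.36 to 6.14 in CONV-R. Tnfsfm13, a read-through of these neighbouring genes, had 0.647 to 0.943 CPM in GF and 0.261 to 1.17 in CONV-R. It shares 731 exon bases with Tnfsf12 and 983 with Tnfsf13, so counts of the 3 are uncertain. The B cell survival factor BAFF (Tnfsf13b) was scarce, at 0.404 to 0.684 CPM in GF and 0.253 to 1.87 in CONV-R, with the highest value in CONV-R 7. Tnfsf9, the 4-1BB ligand, had 0.635 to 0.987 CPM in GF and 0.778 to 1.40 in CONV-R (log2 fold change -0.50 ± 0.19, edgeR adjusted p = 0.0733), and 192 of its exon bases overlap an antisense transcript. Fasl, the death ligand of cytotoxic lymphocytes, had 1.03 to 2.37 CPM in GF and 1.44 to 3.90 in CONV-R. Cd40lg, the helper T cell ligand of CD40, had 0.0594 to 0.883 CPM in GF and 0.233 to 4.66 in CONV-R. For both of these T cell ligands the highest library was CONV-R 1.

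The remaining 7 ligands were too scarce to test. Lta, the lymphotoxin alpha gene beside Tnf, had 18 counts over all GF libraries and 121 over all CONV-R libraries, of which CONV-R 1 held 86. The other CONV-R libraries, at 0.233 to 0.392 CPM, still lay above every GF library, at 0.0289 to 0.185 CPM. These levels rested on 3 to 9 counts per library in those CONV-R libraries and 1 to 6 in GF. Tnfsf8, the CD30 ligand, had 49 counts in GF, 29 of them in GF 8, and 129 in CONV-R, 100 of them in CONV-R 1. Tnfsf15 (TL1A, a ligand described in endothelium) had 57 counts in GF and 53 in CONV-R, and Tnfsf18 (GITR ligand) 18 in GF and 17 in CONV-R. Tnfsf11 (RANK ligand) had 12 counts in GF and 15 in CONV-R, and Tnfsf4 (OX40 ligand) 2 in GF and 3 in CONV-R. No count of Cd70 was found in any of the 13 libraries, which allows up to 0.0177 CPM over the GF libraries and 0.0200 CPM over the CONV-R libraries (3 counts per group, counting error only).

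Among receptors with a death domain, Fas rose in GF. It had 118, 146 and 157 CPM in GF libraries, against 51.7, 84.1 and 98.8 CPM in CONV-R libraries (lowest, median, highest). All GF libraries lay above all CONV-R libraries, and CONV-R 1 was the lowest. The mean was 141 ± 13.9 CPM in GF and 78.99 ± 17.4 CPM in CONV-R (SD, n = 6 and 7), a 1.78-fold difference (log2 fold change 0.84 ± 0.14, edgeR adjusted p = 0.00124). The endothelial marker sum was also higher in GF and lowest in CONV-R 1. Without CONV-R 1 the log2 fold change of Fas was 0.74 ± 0.11, and against CONV-R 2, 3 and 4, with endothelial sums of 19656 to 20587 CPM, it was 0.59 ± 0.09 (edgeR adjusted p = 0.00157). Against CONV-R 1 to 4 it was 0.76, and against CONV-R 5 to 7 it was 0.92. The endothelial sums of those 3 libraries were still below every GF library, and the part of endothelial content in the level of Fas was not tested.

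Tnfrsf1a, the main receptor of TNF and the most abundant gene of the family per length, did not pass. It had 440, 499 and 515 CPM in GF libraries and 321, 476 and 565 CPM in CONV-R libraries, with a log2 fold change of 0.09 ± 0.11 (edgeR adjusted p = 0.551). Tnfrsf10b, the signalling TRAIL receptor of the mouse, had 2.52 to 3.98 CPM in GF and 1.63 to 3.27 in CONV-R. Tnfrsf25, the death receptor of TL1A, had 5.85 to 8.20 CPM in GF and 4.43 to 14.2 in CONV-R. Tnfrsf21 (death receptor 6) had 8.75 to 11.1 CPM in GF and 6.93 to 24.8 in CONV-R. In each of these 3 the GF and CONV-R libraries overlapped. Ngfr, the low-affinity neurotrophin receptor, was called lower with a log2 fold change of -1.46 ± 0.45 (edgeR adjusted p = 0.0310), at 0.0616, 0.353 and 0.535 CPM in GF and 0.392, 0.846 and 1.77 CPM in CONV-R. Its groups overlapped, it rested on 2 to 18 counts per GF library and 3 to 37 per CONV-R library, and the call was lost without GF 9, without GF 13, against CONV-R 5 to 7 and against CONV-R 2, 3 and 4. Edar, the ectodysplasin A receptor, had 1 count in GF and 1 in CONV-R.

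Eda2r, a receptor of the ectodysplasin isoform A2 that lacks a death domain, was the other gene to rise. It had 16.6, 20.3 and 24.4 CPM in GF libraries, against 8.10, 10.6 and 14.8 CPM in CONV-R libraries (lowest, median, highest). All GF libraries were above all CONV-R libraries, and CONV-R 6, 5 and 1 were the lowest. The log2 fold change was 0.86 ± 0.15 (1.82-fold, edgeR adjusted p = 0.00190), 0.61 ± 0.13 against CONV-R 2, 3 and 4 alone (edgeR adjusted p = 0.00847), 0.73 against CONV-R 1 to 4 and 1.06 against CONV-R 5 to 7. The endothelial marker sum was also higher in GF, and within CONV-R it was lowest in CONV-R 1. Eda2r had 8.10, 8.55 and 8.77 CPM in CONV-R 6, 5 and 1. The part of endothelial content in the level of Eda2r was not tested.

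The BAFF receptor gene Tnfrsf13c, a marker of mature B cells, had 0.416, 0.602 and 0.808 CPM in GF libraries and 0.934, 1.44 and 39.1 CPM in CONV-R libraries. CONV-R 1 held the 39.1 CPM, and the other CONV-R libraries reached 1.82 CPM, with no overlap with GF. At the edge, 12 counts in CONV-R 7 (0.934 CPM) stood next to 18 counts in GF 11 (0.808 CPM). Tnfrsf13c rested on 14 to 19 counts per GF library and 11 to 61 per library in CONV-R 2 to 7. Its log2 fold change of -3.52 ± 1.01 (edgeR adjusted p = 0.0235) was -1.22 ± 0.23 without CONV-R 1 (edgeR adjusted p = 0.00281). The call was lost without GF 9, GF 10 or GF 12, with adjusted p up to 0.0521. Tnfrsf13b, which encodes TACI, another receptor of BAFF and APRIL, had 0.376, 0.586 and 0.987 CPM in GF and 0.700, 1.08 and 11.1 CPM in CONV-R, again highest in CONV-R 1. Its groups overlapped, and the log2 fold change of -1.97 ± 0.68 (edgeR adjusted p = 0.0494) was -0.70 ± 0.25 without CONV-R 1 and then did not pass (edgeR adjusted p = 0.0607). That call was also lost without CONV-R 5, CONV-R 6 or any 1 GF library. It was lost too with DESeq2, without a filter on counts, against CONV-R 5 to 7 and against CONV-R 2, 3 and 4. Tnfrsf17, the receptor BCMA of plasma cells, had 26 counts in GF and 12 in CONV-R. B and plasma cell markers moved with Ltb, Tnfrsf13b and Tnfrsf13c in 7 of 8 genes and in CONV-R 1, and their part in these values was not tested.

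CONV-R 1 was the highest of the 13 libraries for 11 of the 35 tested genes and held at least 2 times the next library for 7 of them: Cd27, Cd40, Cd40lg, Ltb, Tnfrsf13b, Tnfrsf13c and Tnfrsf18. The same was not counted over all tested genes, so these counts are not shown to be particular to the family. Cd40, the receptor through which helper T cells license B cells and other antigen-presenting cells, had 30.7 CPM in CONV-R 1. It had 5.74 to 8.78 CPM in GF libraries and 6.60 to 9.43 CPM in the other CONV-R libraries. The log2 fold change of Cd40 was -0.69 ± 0.33 with all libraries and -0.22 ± 0.12 without CONV-R 1, and neither passed. Cd27, a lymphocyte costimulatory receptor, had 6.49 to 8.81 CPM in GF and 6.69 to 18.6 in CONV-R. Tnfrsf18 (GITR, high on regulatory T cells) had 0.446 to 1.17 CPM in GF and 0.156 to 4.92 in CONV-R, and Tnfrsf4 (OX40, on activated T cells) 1.15 to 1.72 CPM in GF and 1.06 to 3.55 in CONV-R. Without CONV-R 1 the CONV-R libraries reached 9.24 CPM for Cd27, 1.12 CPM for Tnfrsf18 and 2.09 CPM for Tnfrsf4. T and NK cell markers and B and plasma cell markers were also highest in CONV-R 1, and their part in these levels was not tested.

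**Figure D2:**
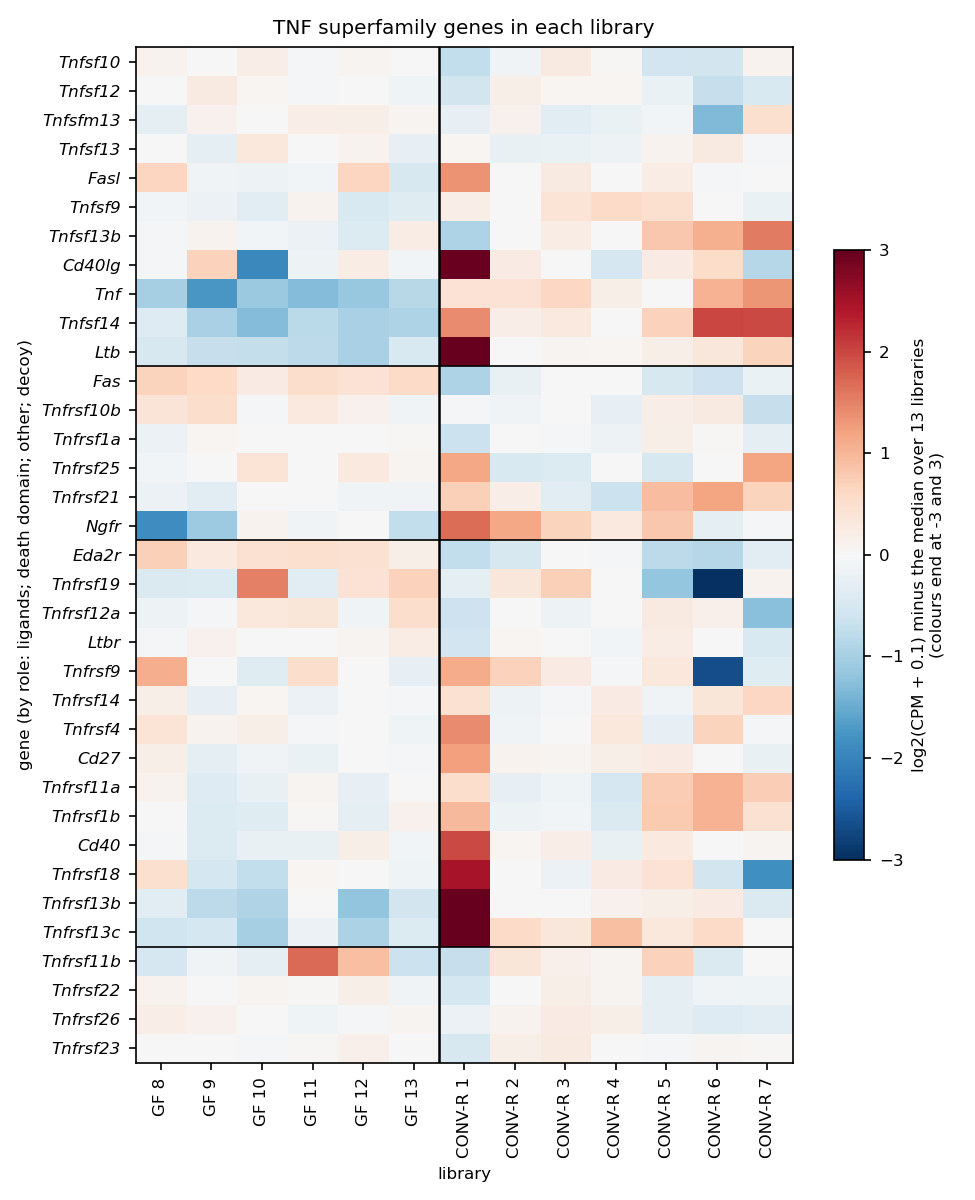
Each of the 35 tested genes (rows, by role from ligands at the top to decoy receptors at the bottom) in each library (columns, GF left of the line and CONV-R right), as log2(CPM + 0.1) minus the gene's median over the 13 libraries. The column of CONV-R 1 is the highest of all for 11 genes, whereas Fas and Eda2r are higher in all 6 GF columns.

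A further set of receptors was high in CONV-R 1, 5, 6 and 7 only, and was picked out after these values were seen, so it carries no test of its own. Tnfrsf1b, the second TNF receptor, had 29.6 to 43.3 CPM in GF libraries, 54.2 to 81.8 CPM in CONV-R 1, 5, 6 and 7, and 29.3 to 37.7 CPM in CONV-R 2, 3 and 4. Tnfrsf11a (RANK, the receptor of myeloid cells and osteoclasts) had 6.18 to 8.72 CPM in GF, 11.8 to 17.0 in those 4 CONV-R libraries and 5.71 to 7.38 in the other 3. Tnfrsf21 had 17.3 to 24.8 CPM in the 4 and 6.93 to 12.55 CPM in the 3. Summed Kupffer cell markers were 2903 to 5192 CPM in the same 4 libraries, 1631 to 2026 CPM in CONV-R 2, 3 and 4 and 1660 to 2618 CPM in GF, and their part in these levels was not tested. None of the 3 receptors passed in the main comparison of all libraries, with log2 fold changes of -0.61, -0.51 and -0.61 for Tnfrsf1b, Tnfrsf11a and Tnfrsf21 (edgeR adjusted p = 0.0721, 0.129 and 0.0876). Tnfrsf1b did pass with DESeq2 and with library totals. In the same order, each was called lower against CONV-R 5 to 7 (edgeR adjusted p = 8.35e-04, 4.20e-04 and 1.15e-04). Those libraries are among the 4 in which the set was picked out. Against CONV-R 2, 3 and 4 the log2 fold changes were 0.07, 0.18 and 0.10, and none passed.

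Among the other receptors none passed. Ltbr, the lymphotoxin beta receptor, had 158, 168 and 192 CPM in GF and 109, 162 and 189 CPM in CONV-R (log2 fold change 0.17 ± 0.12, edgeR adjusted p = 0.299). The receptor shared by the products of Ltb and Tnfsf14 did not pass, whereas both ligands did. Tnfrsf14, the other LIGHT receptor (HVEM), had 22.5 to 30.2 CPM in GF and 24.1 to 41.2 in CONV-R. Tnfrsf12a, the TWEAK receptor Fn14, had 2.31 to 3.72 CPM in GF and 1.01 to 3.12 in CONV-R. Tnfrsf9 (4-1BB), a costimulatory receptor, had 0.386 to 1.23 CPM in GF and 0 to 1.27 in CONV-R, and Tnfrsf19 (TROY) had 0.986 to 4.13 CPM in GF and 0 to 2.34 in CONV-R. Tnfrsf8 (CD30) was not tested, with 5 counts in GF and 24 in CONV-R.

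The genes grouped as decoy or soluble receptors did not pass, 0 of 4. Tnfrsf22 and Tnfrsf23, decoy TRAIL receptors of the mouse, had 24.5 to 30.2 and 19.996 to 22.7 CPM in GF, against 18.4 to 30.2 and 14.8 to 24.7 CPM in CONV-R. Tnfrsf26, their neighbour, had 35.9 to 45.6 CPM in GF and 30.3 to 47.1 in CONV-R. These 3 paralogs lie side by side on chromosome 7, and reads shared between them could be split or lost in the counting. Tnfrsf11b, the soluble decoy osteoprotegerin, had 0.214 to 1.48 CPM in GF and 0.203 to 0.687 in CONV-R.

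**Figure D3:**
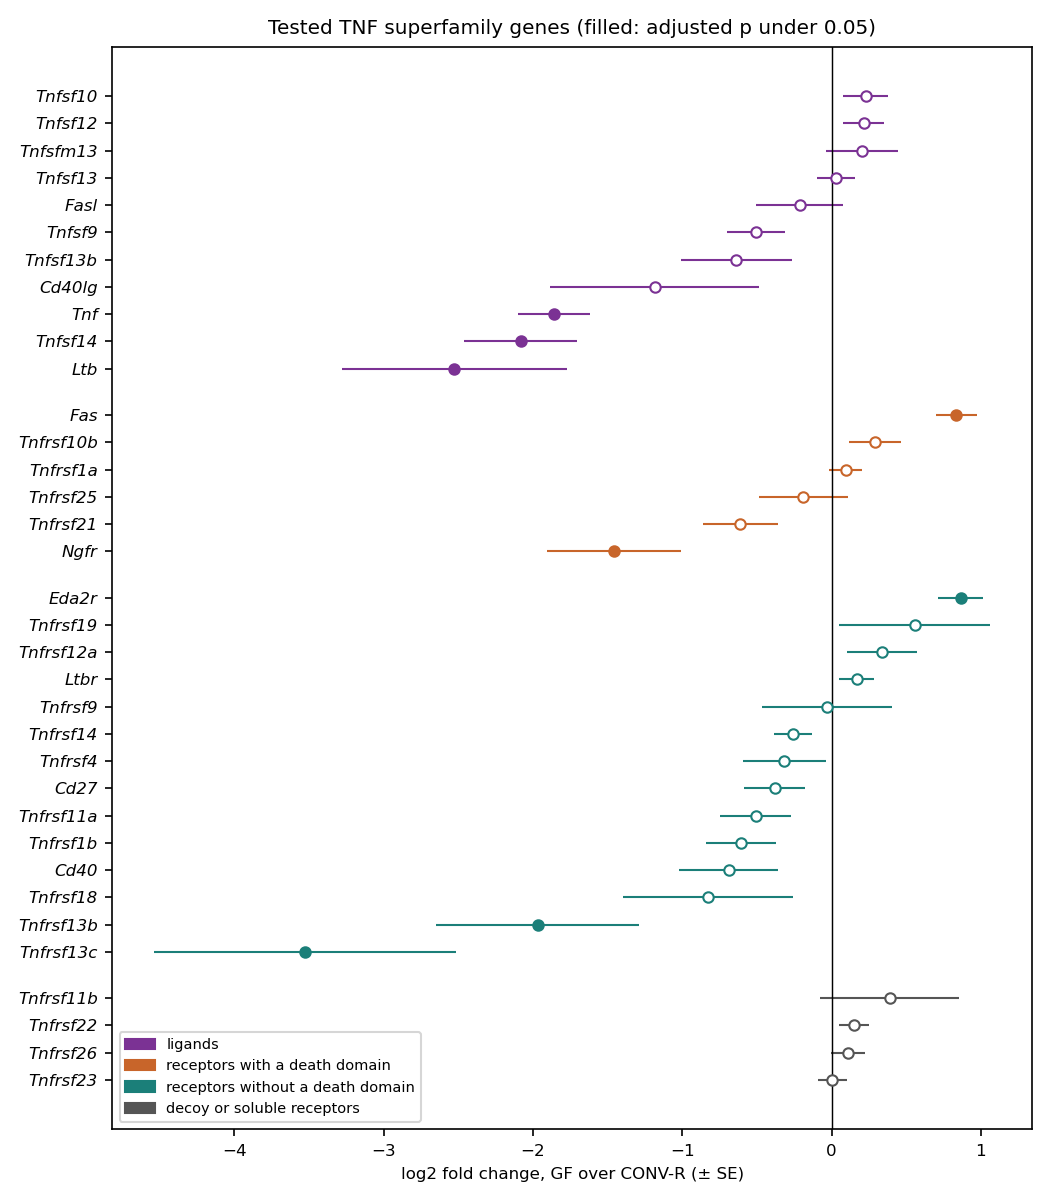
Log2 fold change of GF over CONV-R with its standard error for the 35 tested genes, ordered by role and value; filled points had an edgeR adjusted p under 0.05. Filled points to the right of 0 are Fas and Eda2r, and the filled ligands Tnf, Tnfsf14 and Ltb all lie between -1.86 and -2.53.

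Per kilobase of exon, the order of mean levels in GF was Tnfrsf1a (190 CPM per kilobase), Ltbr (72.7), Fas (68.4), Tnfsf10 (58.6), Tnfrsf14 (18.2), Tnfsf12 (15.1) and Tnfrsf26 (12.7). In CONV-R the same genes had 178, 64.7, 38.3, 49.99, 21.8, 13.0 and 11.7 CPM per kilobase. There Tnfrsf1b (14.4) lay above Tnfsf12 and Tnfrsf26, and Ltb (12.5, with 62.8 in its highest library, CONV-R 1) above Tnfrsf26. Tnfrsf1a stood apart from all others in every library, at 170 to 199 in GF and 124 to 218 in CONV-R. In GF the library ranges of Ltbr (66.9 to 81.4) and Fas (57.0 to 76.0) overlapped, and so did those of Fas and Tnfsf10 (54.0 to 64.8). In CONV-R the ranges of Fas (25.1 to 47.9) and Tnfsf10 (33.7 to 67.9) overlapped as well. Tnf was far lower, at 0.884 CPM per kilobase in GF and 3.24 in CONV-R.

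In build GRCm38 (GENCODE M21), 8 of the 45 genes lie on chromosome 17, among them all 3 called ligands. Ltb spans 35194439 to 35196320, Tnf 35199381 to 35202007 and Lta 35203165 to 35205351 of that chromosome, side by side, and Tnfsf14 spans 57189492 to 57194177, next to Cd70 and Tnfsf9. Of these neighbours Tnfsf9 did not pass and Cd70 was not tested. Chromosome 4 carries 9 family genes, of which Tnfrsf8, Tnfsf8 and Tnfsf15 were not tested and none of the others passed. Over all genes 24.1% were called, and no difference between chromosomes was tested. Fas spans 34290666 to 34327772 of chromosome 19, Eda2r 97333840 to 97377216 of chromosome X and Tnfrsf13c 82221743 to 82224369 of chromosome 15. All are protein-coding genes, and counts are summed over their exons.

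**Figure D4:**
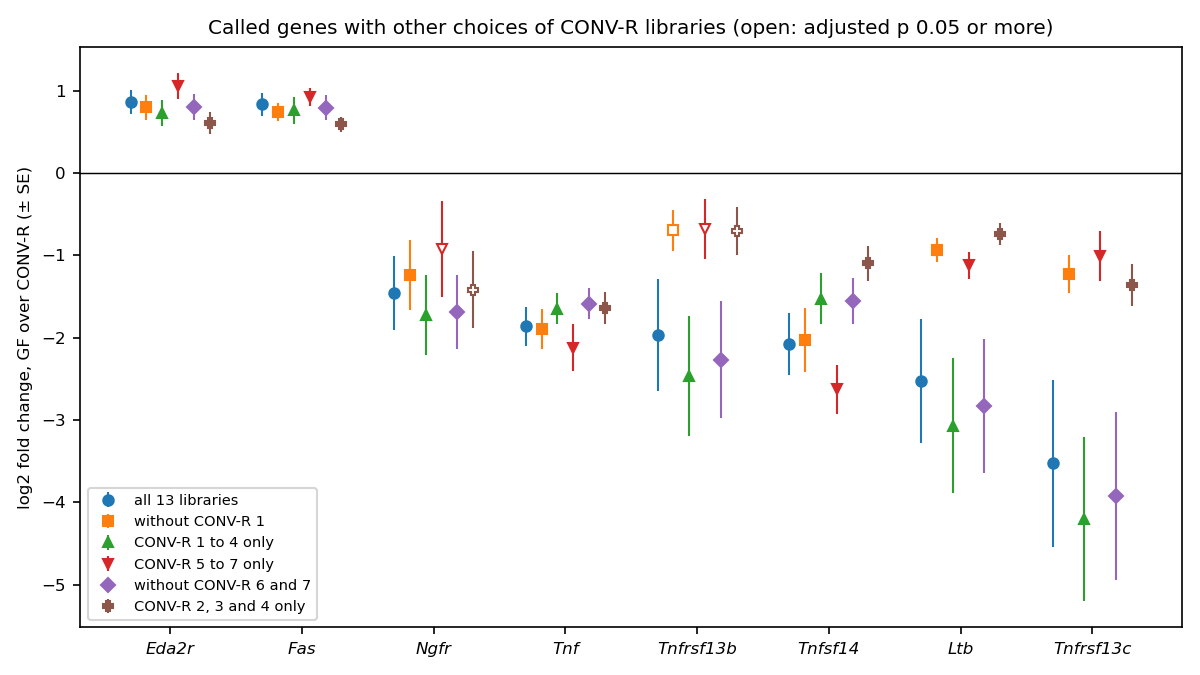
Log2 fold change of GF over CONV-R with its standard error for the 8 called genes, fitted with 6 choices of CONV-R libraries (symbols); open symbols had an adjusted p of 0.05 or more. Fas, Eda2r, Tnf and Tnfsf14 stay filled throughout, and Ltb and Tnfrsf13c lie nearer to 0 whenever CONV-R 1 is left out, at -0.94 and -1.22 without that library alone.

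Genes that act next to these receptors were taken from 5 lists holding 55 genes, all of them tested. Of these 4 were higher in GF and 14 lower, 32.7% together, against 24.1% of all genes; scaling by library totals instead gave 1 higher and 22 lower. The median log2 fold change over the 55 was -0.11. In the non-canonical NF-kB list, through which LTBR, BAFF receptor and CD40 signal, 3 of 4 genes fell. B and plasma cell markers (7 of 8) and neutrophil and monocyte markers (7 of 7) were also lower in GF, and endothelial markers (5 of 8) higher. Their part in the values of this list, and of the adaptors and death effectors, was not tested. Relb, the NF-kB subunit of that arm, had 15.96 to 22.6 CPM in GF and 30.3 to 40.5 CPM in CONV-R (log2 fold change -0.88 ± 0.09, edgeR adjusted p = 6.36e-05). Its partner Nfkb2 changed by -0.57 ± 0.10 and Map3k14, the NIK kinase, by -0.57 ± 0.10, in each case with every GF library below every CONV-R library. Chuk, the IKK alpha kinase, stood at -0.11 ± 0.08.

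Of 23 adaptor and ubiquitin genes 4 fell and 1 rose, 21.7% of the list, which is no more than the 24.1% of all genes. Traf3, an adaptor that holds NIK in check, fell to 23.4 to 26.1 CPM in GF, against 35.7 to 53.6 CPM in CONV-R (log2 fold change -0.74 ± 0.09, edgeR adjusted p = 1.10e-04). Tnfaip3, the ubiquitin-editing inhibitor A20 that TNF induces, changed by -0.71 ± 0.12, its partner Tnip1 by -0.30 ± 0.07 and the TRAF-binding gene Tank by -0.44 ± 0.12. The call of Tank was lost with limma-voom, against CONV-R 1 to 4, without CONV-R 6 and 7 and against CONV-R 2, 3 and 4, where it stood at -0.20 (edgeR adjusted p = 0.126). Spata2, which links CYLD to the receptor complex, rose (0.22 ± 0.07), a call that was lost in 12 of 23 alternatives, such as without CONV-R 1. Of 11 death effectors 3 fell and 1 rose, 36.4% of the list. Bid, which links caspase-8 to mitochondria, had 8.12 to 10.2 CPM in GF and 11.9 to 18.5 in CONV-R (-0.78 ± 0.10, edgeR adjusted p = 2.46e-04). Casp8 changed by -0.17 ± 0.06, the necroptosis kinase Ripk3 by -0.44 ± 0.15 and Cflar, the caspase-8 inhibitor cFLIP, by 0.31 ± 0.10. Of 23 alternatives, Casp8 and Ripk3 each missed the threshold in 14 and Cflar in 10, whereas Bid passed in all 23.

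Of 6 sheddase genes, Adam10 rose (0.28 ± 0.09) and Rhbdf2, a regulator of the TNF sheddase, fell (-0.36 ± 0.10), 33.3% of the list against 24.1% of all genes. The call of Adam10 was lost in 14 of 23 alternatives, among them library totals, leaving out CONV-R 1 and leaving out any 1 GF library, and against CONV-R 2, 3 and 4 its log2 fold change was 0.12. The call of Rhbdf2 was lost against CONV-R 1 to 4 (-0.29) and against CONV-R 2, 3 and 4 (-0.15). Adam17, the TNF sheddase itself, stood at 0.02 ± 0.05. Of 12 TNF-inducible endothelial genes 4 fell and 1 rose, 41.7% of the list. Tnfaip2 had 31.5 to 43.0 CPM in GF and 60.3 to 157 CPM in CONV-R (-1.38 ± 0.21, edgeR adjusted p = 7.80e-04). It was highest in CONV-R 6, 7 and 5, and stood at -0.84 against CONV-R 2, 3 and 4 and at -1.83 against CONV-R 5 to 7. The chemokine genes Cxcl2 (-2.73 ± 0.70) and Ccl2 (-1.34 ± 0.32) fell too, with Cxcl2 at 3.87 to 9.49 CPM in GF and 11.7 to 127 in CONV-R, highest in CONV-R 6 and 7. Against CONV-R 2, 3 and 4 alone Cxcl2 stood at -1.12 and Ccl2, at -0.70, did not pass. The adhesion molecule gene Vcam1 rose (0.52 ± 0.15), although the call was lost without GF 13 and against CONV-R 5 to 7, and Icam1 stood at -0.21 ± 0.08, Sele at -0.91 ± 0.35 and Irf1 at -0.04 ± 0.07 without passing. The members of this list therefore moved in both directions. Neutrophil and monocyte markers were also highest in CONV-R 6 and 7, and their part in the values of Tnfaip2 and the chemokines was not tested. Summed endothelial markers were higher in GF, and their part in the value of Vcam1 was not tested.

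**Figure D5:**
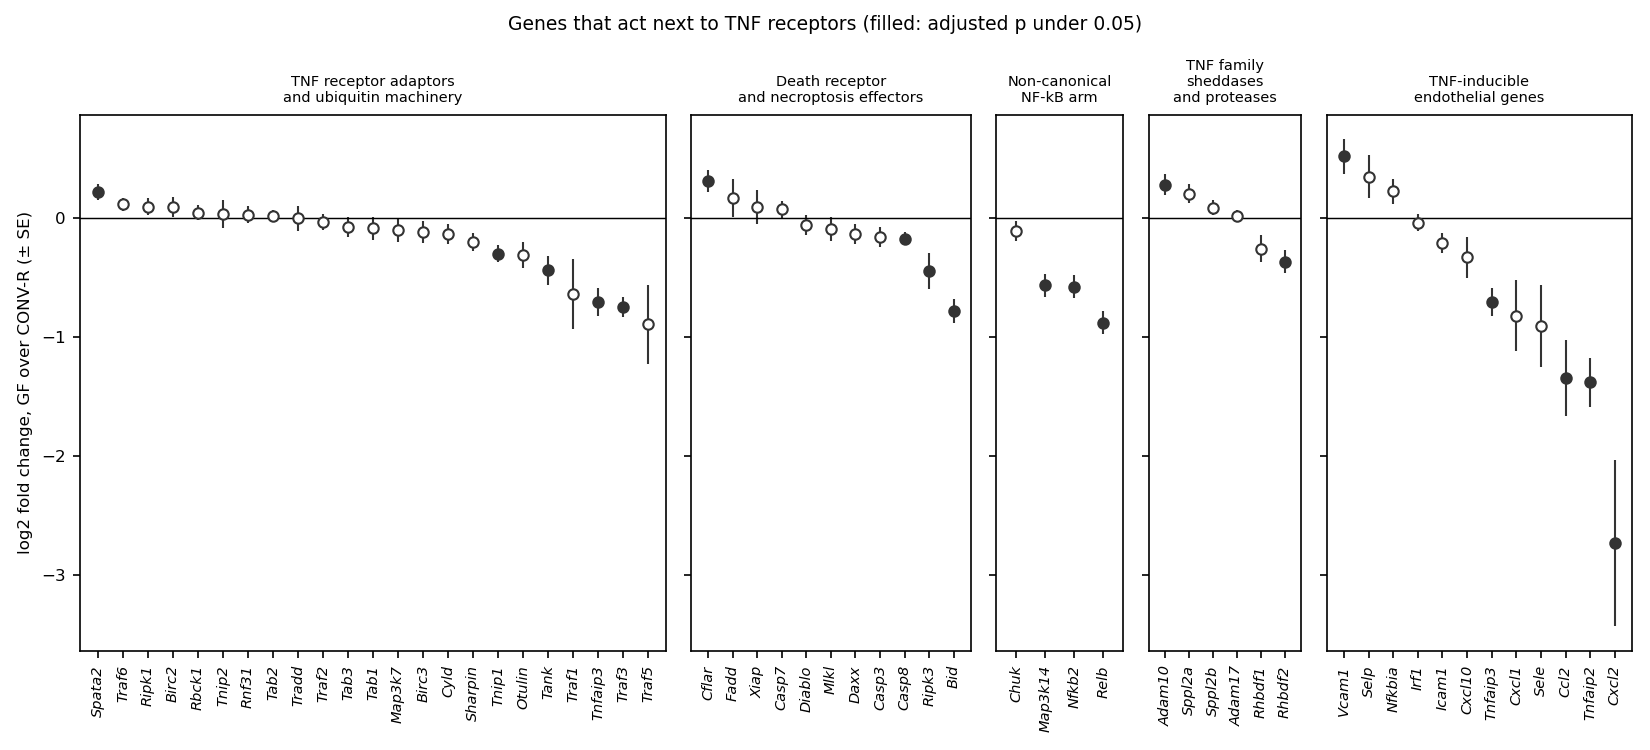
Log2 fold change of GF over CONV-R with its standard error for the 55 genes of the 5 lists, 1 panel per list; filled points had an edgeR adjusted p under 0.05, and Tnfaip3 is in the first and the last panel. In the non-canonical NF-kB panel 3 of 4 points are filled, and these lie between -0.57 and -0.88.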

How the data were processed

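The authors deposited a table of raw counts per gene symbol, 1 column per library, with 0 columns outside the series. STAR 2.7.5a, featureCounts 2.0.1, FastQC 0.11.9 and DESeq2 1.42.1 are the tools, and mm10 the build, per the submitters' processing notes. The annotation, the strand setting and the handling of multi-mapping reads are not stated (not given in the sources used here). Total RNA went into stranded poly(A) libraries, per the labels' protocols.

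Groups came from the labels. Genes were kept by filterByExpr at a minimum count of 10 and a minimum total of 15. TMM-scaled counts of all kept genes were fitted with edgeR 4.0.16 (robust quasi-likelihood, group only) in R 4.3.3. P-values were adjusted by Benjamini-Hochberg over 13915 genes, with a threshold of 0.05. Each standard error is the size of the log2 fold change over the square root of its F statistic. The fit was tested on simulated data, where it recovered 40.3% of 1.5-fold, 69.2% of 2-fold and 89.4% of 4-fold changes. There 5.76% of its calls were false. A gene that missed the threshold is therefore not shown to be unchanged. The simulation changed only 67, 65 and 66 of 13915 genes, drew each gene separately and held no outlying library such as CONV-R 1. Its rates may not hold for these data. Exon lengths are the union of GENCODE M21 exons. Every called family gene is named, the others in role order, and up to 4 called genes per list. Chuk, Adam17, Icam1, Sele, Irf1 and any further called gene of a list were added after their values were seen; the family rule, the lists and the motif letters were chosen with earlier results of these data known. Alternatives were DESeq2 1.42.0, limma-voom 3.58.1, other scalings and filters, either CONV-R code number alone and each library left out; CONV-R 2, 3 and 4 alone and CONV-R 6 and 7 left out were added after seeing the data. No replicate numbers are shared between the groups.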

Additional observations from a re-analysis of the deposited data

Results flagged for a closer look

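In each group, the gap between the most extreme library and its nearest neighbour was set against the group's range (Dixon's 95% limit, which chance passes in about 1 of 20 groups). Of 70 groups of libraries (35 tested genes in GF and in CONV-R), 11 passed, and 9 of these were a high value in CONV-R 1. Genes outside the family were not counted in this way. In CONV-R 1, Ltb had 95.1 CPM (other CONV-R libraries 5.34 to 8.56), Tnfrsf13c 39.1 CPM (0.934 to 1.82), Cd40 30.7 CPM (6.60 to 9.43) and Cd27 18.6 CPM (6.69 to 9.24). There Tnfrsf13b had 11.1 CPM (0.700 to 1.18), Tnfrsf18 4.92 CPM (0.156 to 1.12), Cd40lg 4.66 CPM (0.233 to 0.784), Fasl 3.90 CPM (1.44 to 1.79) and Tnfrsf4 3.55 CPM (1.06 to 2.09). The same library had the highest sums of B and plasma cell markers (1503 CPM) and of T and NK cell markers (207 CPM) and the lowest sum of endothelial markers (11500 CPM). In GF, Tnfrsf1a was low in GF 8 at 440 CPM (other GF libraries 493 to 515), and Tnfrsf23 was high in GF 12 at 22.7 CPM (19.996 to 20.9).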

How the results depend on the processing

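Of the 8 called genes of the family, 4 (Fas, Eda2r, Tnf and Tnfsf14) passed in all 23 alternatives, and 0 changed sign in any. Log2 fold changes ranged from 0.59 to 0.92 for Fas, 0.61 to 1.06 for Eda2r, -2.12 to -1.59 for Tnf and -2.63 to -1.09 for Tnfsf14. The other 4 calls were lost in some: Ltb ranged from -3.07 to -0.74 (adjusted p up to 0.0591), Tnfrsf13c from -4.20 to -1.01 (up to 0.0521), Tnfrsf13b from -2.46 to -0.67 (up to 0.174) and Ngfr from -1.72 to -0.92 (up to 0.249). The count of higher family genes was 2 in all alternatives except 4 against CONV-R 5 to 7, which added Tnfrsf26 and Tnfsf12. The count of lower family genes was 3 with the stricter filter (50 counts in 6 libraries, which tested 22 of the family). Against CONV-R 5 to 7 it was 8, adding Tnfrsf1b, Tnfrsf11a, Tnfrsf21 and Tnfsf13b and losing Ngfr and Tnfrsf13b. Leaving out 1 library gave 2 to 9 lower and always 2 higher genes; the lowest count, 2, came without GF 9, and 3 without GF 10, 12 or 13. Without CONV-R 1 it was 5. The share of all tested genes called changed too, from 24.1% in the main fit to 34.0% against CONV-R 5 to 7. It was 25.0% with the stricter filter, 25.4% without CONV-R 4 and 15.7% without GF 9. Shifts in the family counts are therefore not shown to be particular to the family. Over the 5 neighbouring lists, 1 gene was higher and 22 lower with library totals, 1 higher against CONV-R 1 to 4, and 2 higher without CONV-R 6 and 7; leaving out 1 library gave 1 to 6 higher and 12 to 20 lower genes. Over all tested genes library totals gave 971 higher and 2773 lower (25.9% of calls higher, against 47.5%), CONV-R 1 to 4 alone 978 and 1000, and leaving out GF 9 gave 1013 higher. Of the 27 family genes that missed the threshold, 17 changed sign and 7 passed in at least 1 alternative. Without a filter Lta was called lower. No paired analysis was possible because the groups share no replicate numbers. The cause of these shifts was not tested. Depth limits the scarce genes: 10 of 45 could not be tested.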
